A study of Arabidopsis thaliana with 39 samples.

Results

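The part of the pROK2 T-DNA nearest to its left border reaches from the 25 bp border repeat to the first nopaline synthase terminator (NOSt). It lies between the last backbone base, at 6112 bp of the 12883 bp plasmid, and the first base of that NOSt, at 6778 bp. Its small RNAs were taken as the reads whose midpoint falls in that interval and whose bases equal the plasmid. In the small RNA library of line SALK_059379, 1416 reads met this rule (95% interval 1343 to 1492), or 6.45% of the 21957 exact reads on the plasmid, while the small RNA tables of the whole series list 28781 reads on both plasmids. The 1416 reads were 490 distinct ones, of which 287 were seen once. All intervals are exact 95% intervals (Poisson for counts, Clopper-Pearson for shares) and cover counting error at most. They treat reads as independent, and since PCR copies are not independent molecules, they can be too narrow.

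SALK_059379 is an *Arabidopsis thaliana* line that carries the T-DNA of pROK2, and SAIL_232, used here for the bases shared by both plasmids, carries that of plasmid pCSA110. Small RNA was sequenced from whole rosette leaves, and the series lists 1 library per line. The data thus have no replicate check, and no test between lines was possible. The study's methods describe small RNA sequencing in duplicate, but the series lists no separate duplicate samples. The plants grew at 21 °C in days of 16 h light and 8 h dark by the labels, and the study's methods give other growth conditions. Pooled segregating plants were the source of the RNA, which limits the line as a model of a single insertion state, since plants with and without a given copy contribute to the same library. The number of inserted copies of each base was not used, so a density per kb of plasmid is not a density per inserted copy.

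*Agrobacterium* transfers the DNA between a pair of direct border repeats, and its relaxase VirD2 nicks each repeat after the third base, so that most of the left repeat but little of the right one stays with the transferred strand. DNA beyond the borders, the vector backbone, can be carried along. Plants cut double-stranded RNA of transgenes into small interfering RNAs (siRNAs): those of 21 and 22 nt, made mainly by DCL4 and DCL2, are known from the cleavage of mRNAs, and those of 24 nt, made by DCL3, from RNA-directed DNA methylation. AGO4 is known to prefer siRNAs with a 5′ adenine, and AGO1 those with a 5′ uracil. No gene is annotated in this stretch in the sources used here, and the 35S cassette and nptII, the kanamycin resistance gene, lie farther from the border.

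No small RNA bridged the left border, although both of its sides gave reads. No read crossed the outer end of the border repeat (after 6112 bp), a count with a one-sided limit of 3 reads and an exact two-sided interval of 0 to 3.69, and none crossed the nick position (6115 to 6116 bp). Both counts stayed at 0 when reads with mismatches were included. The last covered backbone base was at 6104 bp, with 3 reads, the next 11 bases (6105 to 6115 bp) were covered by none, and coverage began at 6116 bp, the first base on the T-DNA side of the nick. That first base rested on 1 read, a plus strand read of 23 nt from 6116 to 6138 bp.

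From there the coverage rose, though not evenly. The inner end of the repeat (its last base and 6138 bp) was crossed by 26 reads (17.0 to 38.1), of which 22 were of the plus and 4 of the minus strand, 12 had 24 nt and 16 were distinct. With mismatches allowed it was 33. The depth reached 44 reads at 6146 bp, fell to 8 at 6196 bp and was 120 at 100 nt from the border. Of the members, 11 had their midpoint within the repeat, and all of these were plus strand reads.

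**Figure D1:**
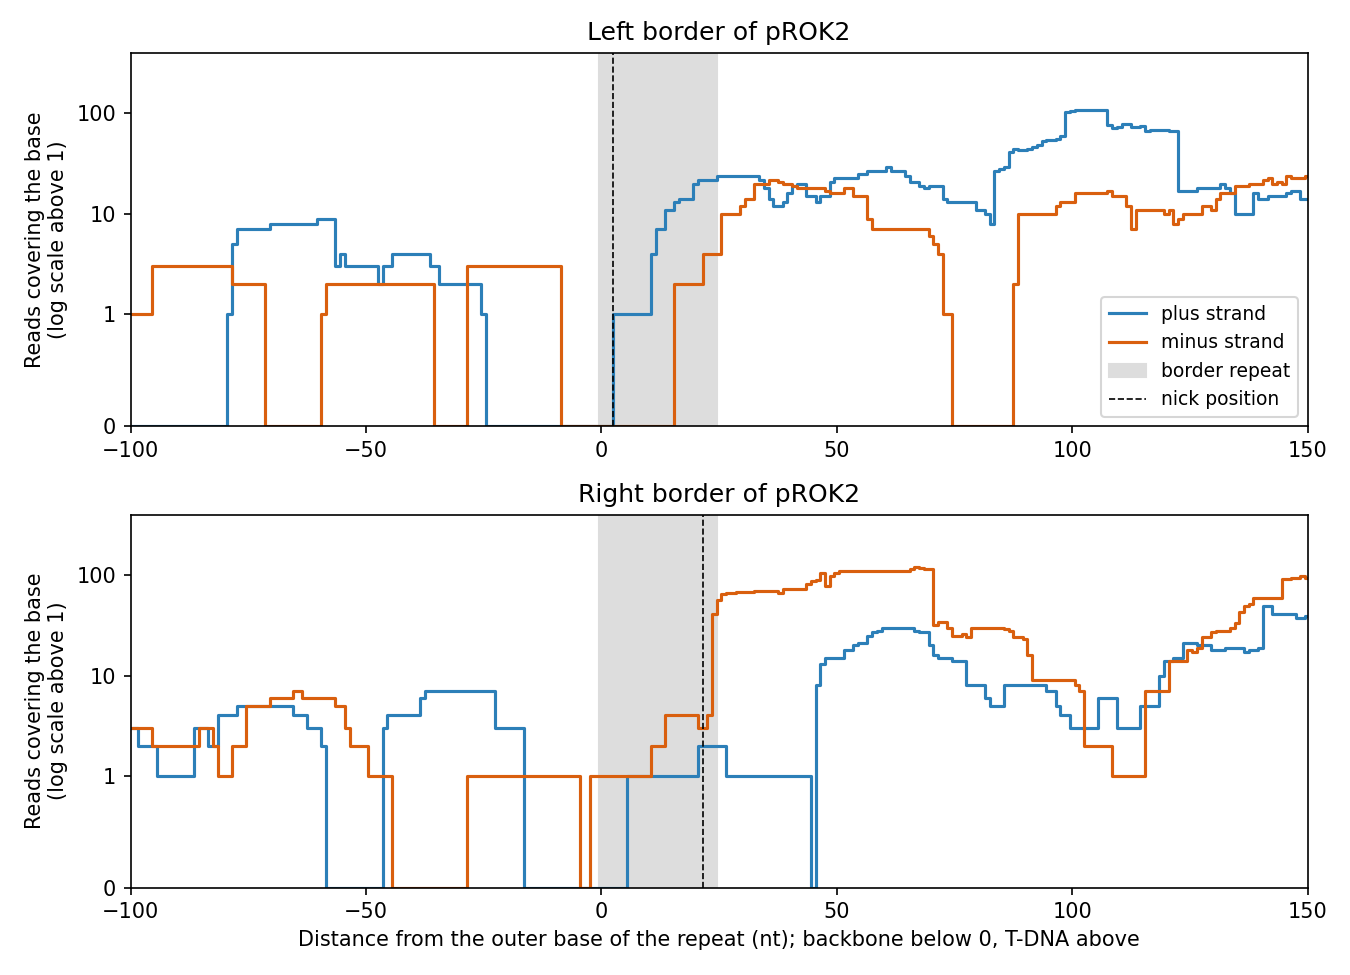
Number of reads of each strand that cover each base (y axis, log scale above 1) against the distance from the outer base of the border repeat in nt (x axis, backbone below 0, T-DNA above), for the left (top) and the right border (bottom) of pROK2. Lines give the plus and minus strand, the grey band the repeat and the dashed line the nick; at the left border the 11 bases outside the nick hold no read, whereas 1 read runs across the outer end of the right repeat.

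The empty run was among the longer gaps on the plasmid and longer than any that lay wholly within the T-DNA. Each position between neighbouring bases was scored for reads that cross it, and 12 such positions in a row had none at the left border. On the whole plasmid 200 of 12882 positions, in 30 runs, were crossed by no read, and 6 runs, this one included, held 12 positions or more, the longest 29. Of the 4317 positions in the T-DNA, 12 were crossed by no read, 3 of them at the left border and 9 in the second NOSt. The second NOSt lies in 261 bases identical in both NOSt copies, so reads listed at the first copy could also match those 9 positions. From the inner end of the repeat to the end of the stretch, all 639 positions were crossed, by 2 to 292 reads (median 32).

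The neighbourhood of the border on the backbone side was itself thin. The last 50 nt of backbone held 9 reads, and the first 50 nt of the stretch held 47. Counts were this low on the backbone side, and 0 crossing reads still allow a low rate of read-through, with an expected number of up to 3 reads. At the right border the inner end of the repeat was crossed by 43 reads (31.1 to 57.9), 41 of them of the minus strand. The nick position there was crossed by 5 reads (1.62 to 11.7) and the outer end by 1 (0.0253 to 5.57), or 4 with mismatches. The intervals at the nick and at the outer end overlap with that of 0 reads at the left border, so the borders were not shown to differ in read-through.

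The same edge appeared in the other line. The pCSA110 plasmid shares with pROK2 a run of 316 identical bases around the left border (5875 to 6190 bp of pROK2), with 238 bases outside the border and 78 inside. In the SAIL_232 library, 0 reads crossed the outer end of this repeat, 0 crossed the nick (1 with mismatches) and 21 crossed the inner end (13 to 32.1), 17 of them of the plus strand. Coverage on pCSA110 began at 248 bp, which is again the first base on the T-DNA side of the nick, and the 27 bases before it held no read. That first base rested on 2 plus strand reads, so the exact position of the edge rests on few reads in both lines. The last 50 nt before that repeat held 2 reads and the first 50 nt from it 57.

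Within the stretch the reads were mostly of siRNA length. Of the 1416 reads, 1290 (91.1%, 89.5 to 92.5) had 21 to 24 nt, and the whole range was 16 to 46 nt. The 24 nt class was the most frequent single length with 574 reads (528 to 623). The 22 nt class held 347 (311 to 386), the 21 nt class 266 (235 to 300) and the 23 nt class 103 (84.1 to 125). Shorter reads numbered 60, reads of 25 to 29 nt 49, and reads of 30 nt or more 17. Expressed over the reads of 21 to 24 nt, 24 nt siRNAs made up 44.5% (41.8 to 47.3) and 21 and 22 nt siRNAs together 47.5% (44.8 to 50.3), so that neither class exceeded the other beyond counting error. With identical reads counted once, the shares were 35.01% (30.3 to 39.9) and 51.4% (46.3 to 56.4), which are apart. The 24 nt class thus held more copies per distinct read.

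**Figure D2:**
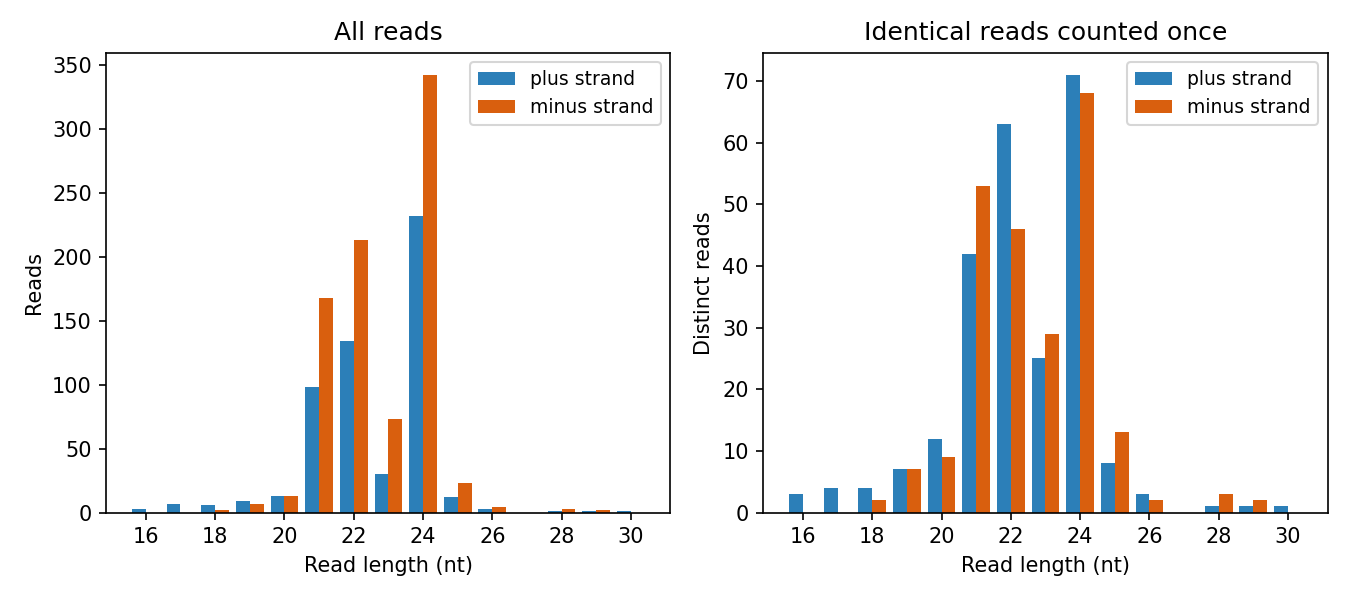
Number of reads (left) and of distinct reads (right) by read length in nt, with plus and minus strand bars side by side; lengths over 30 nt are not drawn. The minus strand is ahead at 21 to 24 nt among reads, whereas among distinct reads the plus strand is ahead at 22 and 24 nt.

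Both strands gave siRNAs of every one of these lengths. The minus strand, which here reads toward the left border in the orientation of nptII, held 855 reads and the plus strand 561, or 39.6% plus (37.1 to 42.2). By length, the plus and minus counts were 98 and 168 for 21 nt, 134 and 213 for 22 nt, 30 and 73 for 23 nt and 232 and 342 for 24 nt. This excess of the minus strand lay in repeated reads, as 51.4% of distinct reads were of the plus strand (46.9 to 55.9). It also lay in a pair of windows: outside the 2 windows with the most reads, which are described next and were left out after the data were seen, 501 of 885 reads were plus, or 56.6% (53.3 to 59.9), and the plus strand was ahead.

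In windows of 50 nt the reads were uneven, and the majority strand changed at 5 of the 13 boundaries between neighbouring windows. Counted from the border, the 13 full windows held 24 to 346 reads with a median of 80, and 17 to 51 distinct reads. A last window of 15 nt completed the stretch. Of these 14 windows, 5 had a strand interval wholly above 50% plus, 6 had one wholly below and 3 held 50%, and the plus share ran from 9.19 to 91.5%. The share of 24 nt among 21 to 24 nt reads ran from 23.9 to 62.2%.

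The window at 200 nt from the border (6313 to 6362 bp) held the most reads, 346 (310 to 384), or 24.4% of all members. It held 43 plus and 303 minus reads, and 24 nt reads made up 60.8% of its siRNAs. The 15 nt at the edge of the NOSt (from 6763 bp) came next by count, with 185 reads (159 to 214), 17 plus and 168 minus, and 24 nt made up 27.2% of its siRNAs. Per length this short window was the denser, at 12333 reads per kb against 6920. The window at 100 nt (6213 to 6262 bp) had 128 reads (107 to 152) with the opposite strand order, 90 plus and 38 minus, and the 24 nt share of 62.2% was the highest of the 14. Of the full windows richest in 24 nt reads, those at 100 and 200 nt, the former was thus mostly plus and the latter mostly minus.

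With this placement of the windows the emptiest lay directly beside the fullest, which did not hold when they were shifted by 25 nt: the emptiest was then at 6688 to 6737 bp, with 35 reads. The emptiest unshifted window began at 250 nt (6363 to 6412 bp) and held 24 reads (15.4 to 35.7), 8 plus and 16 minus. The window at 550 nt (6663 to 6712 bp) held 28 (18.6 to 40.5), 9 plus and 19 minus, and the one that begins with the border repeat (up to 6162 bp) held 47 (34.5 to 62.5), 25 plus and 22 minus. Among the other full windows the most one-sided were plus: 77 of 86 reads in the window at 50 nt, 54 of 59 at 450 nt and 93 of 112 at 300 nt. The remaining windows held 75 to 86 reads each, of which those at 150, 350, 400 and 600 nt were mostly minus and that at 500 nt was mostly plus. The GC content of the windows ran from 34 to 68%, and over the 14 windows, which share 1 library, it had Pearson's r of -0.05 and Spearman's rho of 0.15 with reads per kb.

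**Figure D3:**
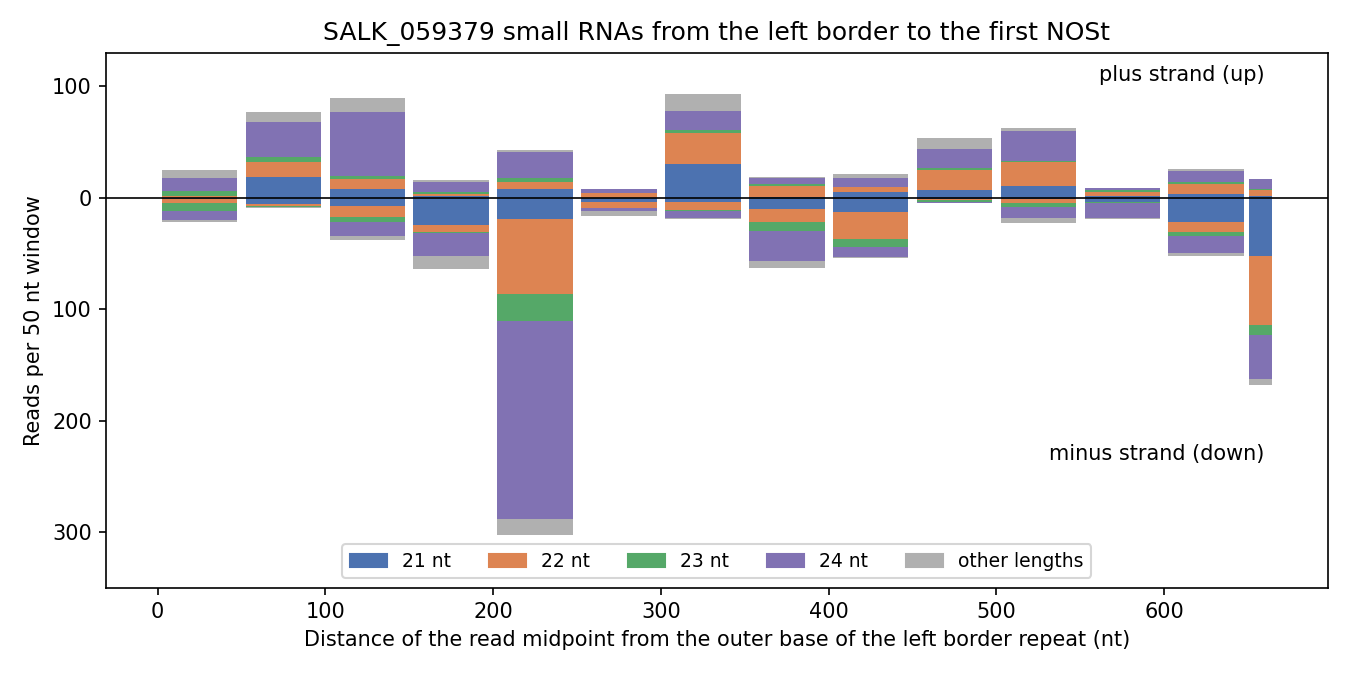
Reads per 50 nt window (y axis, plus strand upwards, minus strand downwards) against the distance of the read midpoint from the outer base of the left border repeat in nt (x axis), with colours for read length; the last window has 15 nt. The window at 200 nt holds 303 minus strand reads, most of them of 24 nt, and its neighbour at 250 nt holds 24 reads in all.

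Much of this unevenness came from reads that ended at the same base. The reads had 384 different 5′ ends and 293 different 3′ ends, and the 10 most frequent held 30.8% of the members for the 5′ end and 38.5% for the 3′ end. Over the whole plasmid the corresponding shares were 9.84% and 12.2%, although a longer sequence with more ends gives lower shares by its size alone. The 5 most frequent 5′ ends were at 6328 bp (minus, 75 reads), 6326 bp (minus, 54), 6786 bp (minus, 54), 6342 bp (minus, 51) and 6212 bp (plus, 44). Of these, 4 were mostly of 1 length: all 75 reads at 6328 bp had 24 nt, 49 of the 54 at 6326 bp had 22 nt, 41 of the 51 at 6342 bp had 24 nt and all 44 at 6212 bp had 24 nt. At 6786 bp, within the NOSt, 28 reads had 21 nt and 21 had 22 nt.

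The main pile shared its 3′ end instead. On the minus strand, 141 reads (119 to 166) ended 3′ at 6305 bp, and 49 of these had 22 nt, 15 had 23 nt and 75 had 24 nt, so that reads of different length differed at the 5′ end. These were also the most frequent reads of their lengths: the 24 nt read from 6305 to 6328 bp (75 reads, 59.0 to 94.0, with a 5′ adenine), the 22 nt read from 6305 to 6326 bp (49 reads, 36.3 to 64.8, with a 5′ uracil) and the 23 nt read from 6305 to 6327 bp (15 reads, 8.40 to 24.7, with a 5′ uracil). The most frequent 21 nt read lay elsewhere, on the minus strand from 6766 to 6786 bp (28 reads, 18.6 to 40.5, with a 5′ cytosine). Nearby 3′ ends on the minus strand, at 6305, 6318 and 6319 bp, together accounted for 234 of the 346 reads in the fullest window, or 67.6%.

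The pile at the other end of the stretch spanned the start of the NOSt. The junction between the stretch and the first NOSt base at 6778 bp was crossed by 221 reads (193 to 252), 201 of them minus, with 62 reads of 21 nt, 73 of 22 nt, 13 of 23 nt and 62 of 24 nt. In the last window, 148 of the 185 reads (80.0%) were minus strand reads with a 3′ end at 6765, 6766 or 6767 bp. Both NOSt copies share 261 identical bases, and the matching position of the second copy (8607 to 8608 bp), which has other sequence beside it, was crossed by 136 reads (114 to 161), of which 135 were minus. No read of the stretch matched pROK2 at more than 1 place, so its members could be assigned to the first copy. This check covered members only, not crossing reads with their midpoint in the NOSt.

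Bases at the ends of the reads differed from those inside them. For 24 nt reads the 5′ base was adenine in 46.9% (42.7 to 51.04), against 26.5% adenine at the inner positions of the same reads. For 22 nt reads it was uracil in 41.2% (36.0 to 46.6, inner 21.4%), and for 21 nt reads uracil in 37.2% (31.4 to 43.3, inner 24.1%) and cytosine in 36.8% (31.0 to 42.9, inner 20.6%). The rest of the T-DNA had 5′ adenine in 36.8% of 24 nt reads (35.2 to 38.3) and in 32.1% of distinct ones. Its 5′ uracil share was 40.4% for 22 nt reads and 48.2% (46.2 to 50.2) for 21 nt reads, and 18.6% of its 21 nt reads had a 5′ cytosine. Some of the shares in the stretch depended on the piles. Among distinct 21 nt reads, 5′ cytosine stood at 23.2%, the same as at their inner positions, and uracil at 36.8% (27.2 to 47.4, inner 21.9%). The adenine share of the 24 nt reads also fell when repeated reads were reduced. It was 33.1% of distinct reads (25.4 to 41.6, inner 24.6%), and 24.9% (20.6 to 29.6) without the fullest window. The latter is near the inner share of 26.5% over all 24 nt reads of the stretch. An inner share without that window was not computed.

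At the 3′ end cytosine was the most frequent base at each length. It ended 62.4% of 21 nt reads (56.3 to 68.2), 49.9% of 22 nt reads (44.5 to 55.2), 41.7% of 23 nt reads (32.1 to 51.9) and 57.7% of 24 nt reads (53.5 to 61.7), whereas the inner share of cytosine was 20.6 to 22.9%. Among distinct reads the 3′ share was lower for 21, 22 and 24 nt, at 45.3, 47.7 and 48.9%, and 42.6% for 23 nt, against an inner share of 20.7 to 23.2%. In 24 nt reads outside the fullest window it was 64.4% (59.4 to 69.3), which was computed for this length alone. The excess was not particular to this stretch, because the rest of the T-DNA had 66.3, 59.2, 40.6 and 55.9% for the 4 lengths. The exact-match rule left out 123 reads with 1 difference at their last base, which bears on this share. How library preparation contributed to the 3′ base was not tested.

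**Figure D4:**
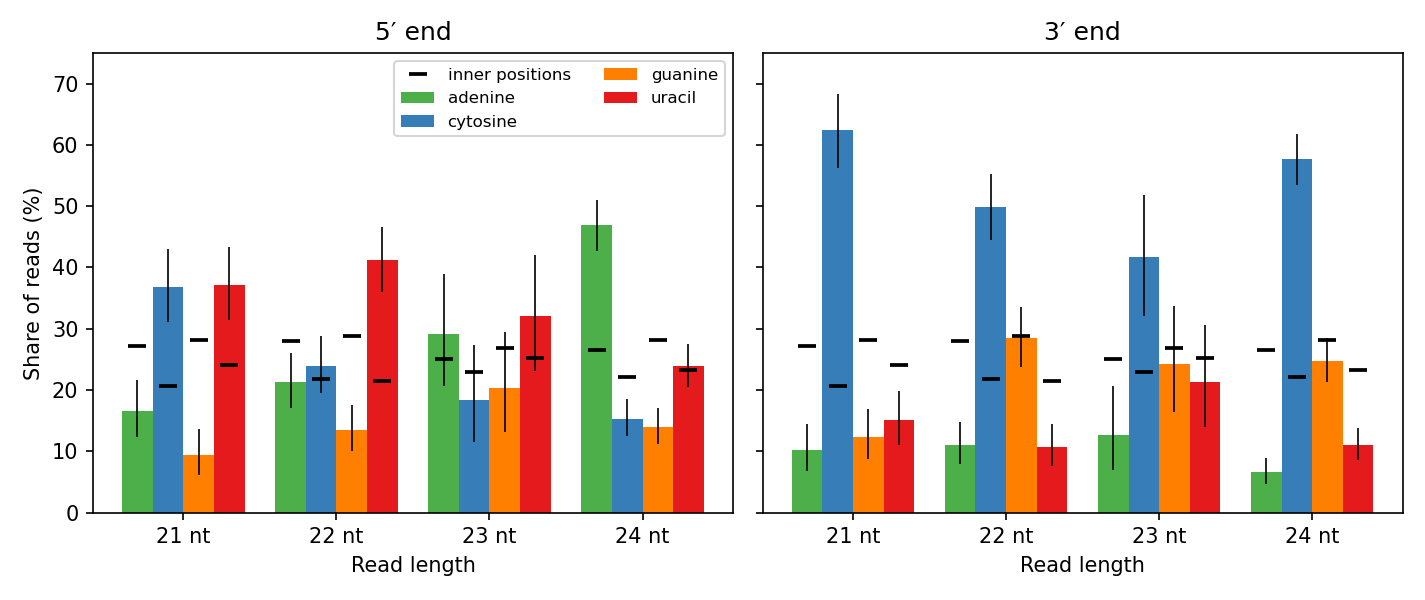
Share of reads in percent (y axis) with each base at the 5′ end (left) and the 3′ end (right), by read length (x axis). Bars have exact 95% intervals and black marks give the share of the same base at the inner positions; adenine reaches 46.9% at the 5′ end of 24 nt reads, and cytosine 41.7 to 62.4% at the 3′ end.

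Dicer products pair with a 2 nt overhang at each 3′ end, so opposite-strand reads of equal length were lined up at each offset. At the offset of such a duplex there were 4 pairs of 21 nt reads, 5 of 22 nt and 11 of 24 nt, each read being used in at most 1 pair per offset. At the other offsets the number of pairs ran from 1 to 7 (median 3.5), from 2 to 10 (median 5) and from 4 to 18 (median 10.5). The duplex offset did not stand out for any of these lengths.

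Compared with its neighbours, the stretch was more densely covered than the backbone beside it but less than the 35S stretch and nptII. It held 2129 reads per kb (2020 to 2243), and backbone of the same length outside the left border (5448 to 6112 bp) held 998 (924 to 1077). The first NOSt, next to the stretch, held 1487 (1342 to 1642), the 35S stretch between the NOSt copies 2776 (2694 to 2860) and nptII 5169 (5012 to 5329). Reads within the 261 identical bases match both NOSt copies, so the values of the first NOSt cannot be assigned to that copy alone. By distinct reads the stretch had 737 per kb (673 to 805), against 316 in that backbone, 785 in the first NOSt, 975 in the 35S stretch and 931 in nptII. The intervals of the stretch and the backbone were thus apart for distinct reads too, whereas the first NOSt had an overlapping interval (682 to 901). Distinct reads rise in number with the reads counted, and no comparison at equal depth was made, so this is not a separate measure of variety.

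In length the stretch was close to its nearest neighbours and far from nptII. The 24 nt share of 44.5% compared with 41.2% (37.3 to 45.2) in the backbone beside it, 42.6% (37.4 to 48.0) in the first NOSt and 46.6% (45.0 to 48.1) in the 35S stretch, all with overlapping intervals. As for density, the share of the first NOSt rests on reads that can match both copies. In nptII it was 26.3% (24.9 to 27.7), below the stretch. From nptII to the right border repeat it was 36.5% (33.3 to 39.9), also below, but 31.1% (26.1 to 36.4) among distinct reads, where the intervals overlapped. The whole T-DNA stood at 37.9% (37.0 to 38.8). The whole plasmid stood at 42.8% (42.1 to 43.5), which overlaps with the stretch, so its mix of lengths was not particular to it. Among distinct reads the share in nptII was 29.4% (25.8 to 33.2), which overlaps with the 35.01% of the stretch, so the intervals were apart for all reads only. The backbone of the same length outside the left border also differed in strand, with 22.9% plus reads (19.7 to 26.3) against 39.6%. Among distinct reads it was 41.4% against 51.4%, where the intervals overlapped. These values hold for that part of the backbone only, and over the whole plasmid 54.7% of reads were plus (54.1 to 55.4).

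**Figure D5:**
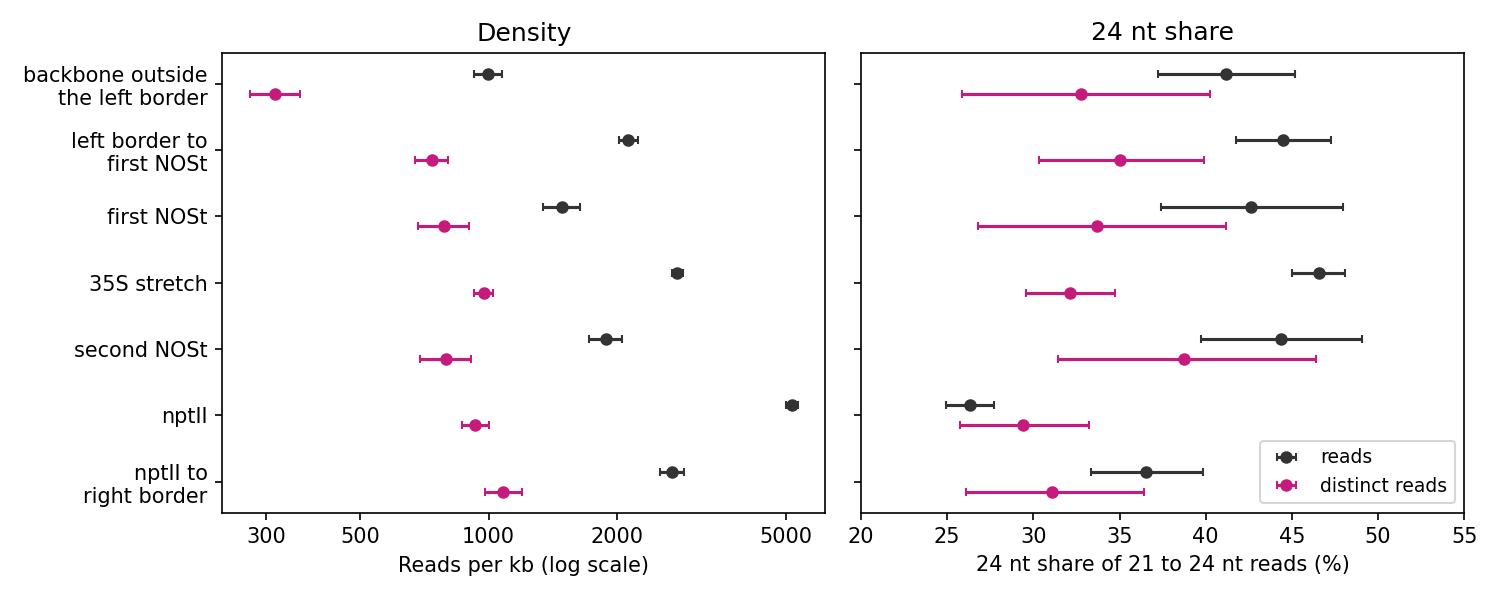
Reads per kb of plasmid (left, log scale) and the 24 nt share of 21 to 24 nt reads in percent (right) for 7 stretches of pROK2 in plasmid order, for all reads and for distinct reads, with exact 95% intervals. The stretch described here lies at 2129 reads per kb, above the backbone outside the left border at 998, and its 24 nt share of 44.5% is above that of nptII at 26.3%. Reads within the identical bases of the NOSt copies match both copies.

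Most of the stretch has a counterpart on pCSA110, which allowed the same bases to be read in both lines. Besides the run across the border, 4 inverted runs of 38, 125, 136 and 154 identical bases lie between 6322 and 6773 bp, and runs of at least 18 bases together took up 528 bases of the stretch, or 79.4%. Levels were not compared, because neither library was scaled to its size, and the lengths are given side by side for 1 library each.

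On the 78 shared bases inside the left border, SALK_059379 had 79 reads, 64 of which had 21 to 24 nt. Of these 64, 48.4% had 24 nt (35.8 to 61.3) and 31.3% had 21 or 22 nt (20.2 to 44.1). SAIL_232 had 128 reads there, and of its 107 reads of 21 to 24 nt the shares were 25.2% (17.3 to 34.6) and 72.9% (63.4 to 81.0). The intervals of both shares were apart between these libraries. On the inverted runs, SALK_059379 had 515 reads, and 24 nt made up 31.5% (27.2 to 35.9) of the 461 that had 21 to 24 nt. SAIL_232 had 133 reads there, of which only 72 had 21 to 24 nt, and 24 nt made up 18.1% (9.98 to 28.9) of those 72, an interval that overlapped with that of SALK_059379. Line and library cannot be told apart here.

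Few longer RNAs were listed on the stretch. Of 125 aligned pieces that the RNA-seq table of SALK_059379 lists on pROK2, 3 had their midpoint in it (0.619 to 8.77). Of these, 1 had more than 30 bases, a plus strand piece of 130 nt from 6697 to 6826 bp with 1 base that differed from the plasmid, which runs into the first NOSt. The other pieces had 10 and 11 bases, and each also had 1 base that differed from the plasmid.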

How the data were processed

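The authors size-selected small RNA, cut off adapters, aligned reads to each plasmid (Bowtie2, Geneious aligner) and re-mapped them to TAIR10 to check for off-target reads. The submitters' processing notes name Bowtie2 2.3.0, Bowtie 0.12.7 and FastQC. The aligner behind a given table is not stated in those sources. The deposited tables list reads with strand, start and end, counted from 1, without normalization or counts, and 25606 reads on pROK2. Reads were counted here by entry with Python 3.11.15, NumPy 2.4.6 and SciPy 1.17.1. The methods state mapping without mismatches, yet of 1657 reads with their midpoint in the stretch 241 differed from the plasmid, 231 of them at 1 base, and were left out, so 85.5% were used. Sequences were searched exactly in TAIR10.1, where 0 members were found. The counting was tested on simulated reads. The named features were the most frequent read of each siRNA length, the 5 most frequent 5′ ends, the 3 fullest and 3 emptiest windows and the border repeat. The most frequent 3′ ends and the most one-sided windows were chosen after their values were seen. Members and rules were chosen with earlier results of these data known. Alternatives covered the match, duplicate reads, the ends of the stretch, the most frequent 5′ end and the windows. Plasmid sequence is not printed, and the other samples of the 39 listed are not analysed here.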

Additional observations from a re-analysis of the deposited data

How the results depend on the processing

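The 0 reads across the outer end of the border repeat stayed at 0 with mismatches allowed. Asking for at least 5 bases on either side, or counting identical reads once, could not change a count of 0. The fullest window held 336 reads with windows shifted by 25 nt, against 346 without the shift. With identical reads counted once, the number of members was 490, the 24 nt share 35.01%, the 21 and 22 nt share 51.4%, the plus share 51.4%, and the shares of 24 nt reads with 5′ adenine and 3′ cytosine 33.1% and 48.9%. With reads wholly inside the stretch the 21 and 22 nt share and the plus share were both 44.4%. With both ends moved inwards by 50 nt the 24 nt share was 47.5% and the plus share 45.2%. Over all members the 24 nt share was 40.5%. Without the most frequent 5′ end the 24 nt share was 41.1%, the 21 and 22 nt share 50.5%, the 5′ adenine share 38.9% and the 3′ cytosine share 66.3%. The remaining alternatives, and those for the 3′ base, were chosen after seeing the data. Without the fullest window, the 24 nt share was 38.9%, the 21 and 22 nt share 53.4%, the plus share 48.4%, the 5′ adenine share 24.9% and the 3′ cytosine share 64.4%. Without the 2 fullest windows, 885 members remained, with a 24 nt share of 41.6%, a 5′ adenine share of 25.5%, a 3′ cytosine share of 61.8% and a plus share of 56.6%, which turned the strand order. The cause of these shifts was not tested. In all, 46 values under alternatives stayed within the interval of the main value, or within 1.5 times it for counts. Another 24 moved beyond that, and 1 was reversed, the plus share without the 2 fullest windows. Some of the 46 could not change, because leaving out reads at more than 1 place or found in TAIR10.1 removed 0 members. No paired analysis was possible because the series lists 1 small RNA library per line. Precision is limited by depth: windows of fewer than 50 reads have wide intervals, and the 0 reads across the border allow an expected number of up to 3.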
